A study of Mus musculus with 12 samples.

Results

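The synaptotagmins described here are 10 mouse genes, Syt1, Syt2, Syt3, Syt4, Syt5, Syt7, Syt10, Syt11, Syt13 and Syt17, found by symbol among the 55471 genes of the count table, and all 10 passed the filter on low counts that left 19578 genes for testing. The list was selected on the measured difference between Neuid KD and control, with Syt10 as its leading gene. The differences of these 10 genes between the groups are therefore given as a description, without p-values. Where an adjusted p under 0.05 or a call is mentioned for them, it belongs to this description and is no independent test. The annotation holds 7 further synaptotagmins (Syt6, Syt8, Syt9, Syt12, Syt14, Syt15 and Syt16), of which 5 were tested.

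Neuid (Gm10419) is a long non-coding RNA that was depleted in primary hippocampal neurons from CD1 wild-type (WT) mouse embryos. All cultures received an antisense LNA gapmer (a short locked-nucleic-acid oligonucleotide that directs RNase H cleavage of its target) packed in lipid nanoparticles on day in vitro 7, and RNA was taken on day in vitro 10. The control group (6 libraries) received the control gapmers and the Neuid KD group (6 libraries) the NeuID targeting gapmers, so the carrier and the chemistry were shared by both groups. Nothing in the labels says whether the 6 libraries of a group came from separate cultures, so the errors and p-values measure only the spread between these samples, which may be technical. Expression was measured by total RNA-seq as read counts per gene, from 11152556 to 30914714 reads per library. Levels are counts-per-million values (CPM) after scaling with TMM factors, which correct for differences in library composition. In bulk RNA, fewer cells of a type and less RNA per cell cannot be told apart.

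Synaptotagmins are vesicle and membrane proteins with tandem C2 domains, which in many members bind Ca2+ and phospholipids and couple Ca2+ entry to membrane fusion. In hippocampal neurons Syt1 serves fast neurotransmitter release and Syt7 slower release, whereas other members act on dense-core vesicles, in the endosome or after the synapse, and several do not bind Ca2+ at all. Syt10 is known as the Ca2+ sensor for release of insulin-like growth factor 1 (IGF-1) from olfactory bulb neurons and as a gene induced by strong activity in the hippocampus.

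Neuid itself was present at 26.0 to 31.0 CPM in control libraries and at 6.32 to 9.55 CPM in Neuid KD libraries, with no overlap. Its log2 fold change was -1.81 ± 0.08 (SE, n = 6 per group). The cultures held neurons by their markers, since Map2 had 2625 ± 180 CPM and the glutamate transporter gene Slc17a7 444 ± 26.1 CPM in control libraries (SD, n = 6), next to astrocyte RNA. Reads on 2014 chemosensory receptor genes, which serve mainly in sensory epithelia, gave a background of 26.7 to 667 CPM. It was at least 100 CPM in 4 control and 3 Neuid KD libraries and lower in 2 control and 3 Neuid KD libraries.

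Syt10 showed the largest difference in the family. In control libraries it ran from 4.66 to 6.76 CPM with a median of 5.24, on 103 to 166 reads per library. In Neuid KD libraries it ran from 1.78 to 3.32 CPM with a median of 2.39, on 23 to 95 reads. Every Neuid KD library lay under every control library, and the Neuid KD mean was 45.4% of the control mean. The log2 fold change was -1.12 ± 0.16 (SE, n = 6 per group), and it lay between -1.24 and -1.04 over 22 alternative settings (12 of them leaving out 1 library each). The decline was of like size where the background was low and where it was high: means fell from 5.38 to 2.58 CPM in the 5 libraries under 100 CPM and from 5.37 to 2.30 CPM in the 7 libraries above.

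**Figure D1:**
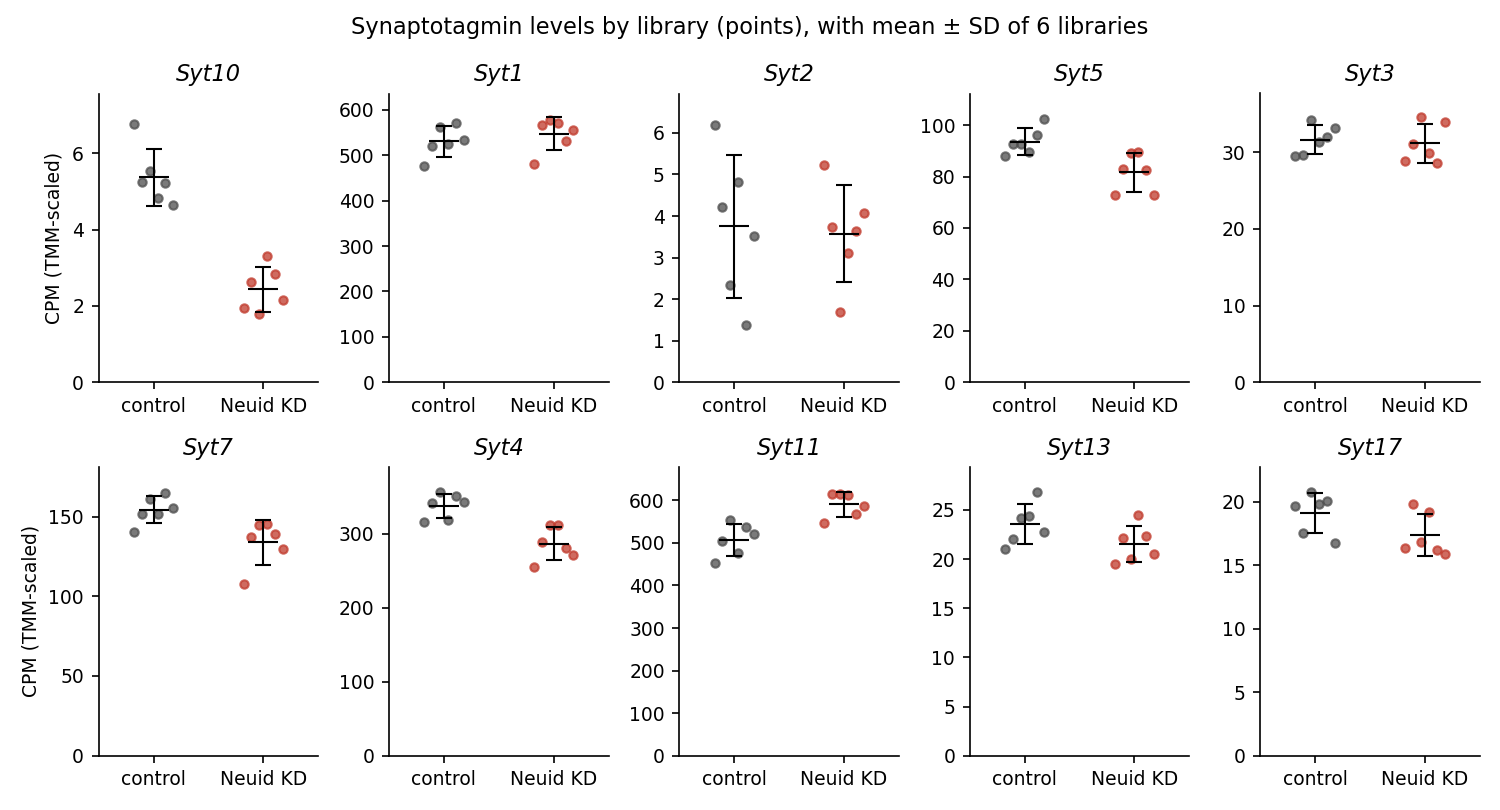
Level of each synaptotagmin in CPM (linear axes from 0) in the 6 control libraries (grey points) and the 6 Neuid KD libraries (red points), with the mean and SD in black. Syt10 (1.78 to 3.32 CPM against 4.66 to 6.76) and Syt4 (255 to 312 CPM against 316 to 356) are the 2 genes whose groups do not overlap.

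Syt10 lies on the minus strand of chromosome 15 (89782393 to 89841860, GRCm38), and its start region is shown because this gene carries the family's main difference, with that of Syt11, the gene that moved most in the other direction, for contrast. RefSeq windows on GRCm38.p6, 250 bases before to 50 bases after the start, were given for 5 of the 10 genes (7 windows). Both strands were searched for the core of the cyclic AMP response element, CRE (TGACG), with any match to the whole CRE (TGACGTCA) also counted as a core match. The E-box of basic helix-loop-helix factors (CACGTG) and the GC box of Sp factors (GGGCGG) were searched in the same way. Capitals mark the CRE core and the GC box on either strand, and each window reads 5′ to 3′ on the gene's own strand.
Syt10, chr15:89841811-89842110, minus strand: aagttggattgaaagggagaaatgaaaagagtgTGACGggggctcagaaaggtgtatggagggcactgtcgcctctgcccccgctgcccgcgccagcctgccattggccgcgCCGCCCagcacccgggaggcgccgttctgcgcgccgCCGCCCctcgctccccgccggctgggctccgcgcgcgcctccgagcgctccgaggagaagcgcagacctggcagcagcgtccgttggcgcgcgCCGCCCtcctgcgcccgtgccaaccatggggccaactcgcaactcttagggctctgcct
Syt11, chr3:88772550-88772849, minus strand: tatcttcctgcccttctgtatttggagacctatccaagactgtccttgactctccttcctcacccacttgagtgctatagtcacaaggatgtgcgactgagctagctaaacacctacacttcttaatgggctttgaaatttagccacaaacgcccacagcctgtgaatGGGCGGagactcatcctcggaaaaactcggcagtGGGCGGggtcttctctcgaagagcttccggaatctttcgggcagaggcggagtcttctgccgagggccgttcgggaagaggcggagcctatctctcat
The Syt10 window was 70.7% G and C with 35 CpG dinucleotides, and 93.0% of 32534 mouse windows held fewer CpG. The Syt11 window was 53.0% G and C with 14 CpG. This Syt11 window lies inside the annotated gene, which reaches to 88775164, whereas the Syt10 window spans the annotated gene end at 89841860. The 2 windows are therefore not placed alike on their genes. The CRE core was found once in the Syt10 window, once in 1 of the Syt2 windows and in none of the other 5, against 20.9% of all windows, whereas the whole CRE (1.8% of all windows) and the E-box (7.17%) were in none of the 7 windows. The GC box was found 3 times in Syt10 and 2 times in Syt11, against 35.9% of all windows with at least 1. It was also found 4 and 2 times in the Syt2 windows and 1 time in 1 of the Syt1 windows. The Syt2 windows were 74.3% and 68.3% G and C with 34 and 28 CpG, and Syt2 had a log2 fold change of -0.08. High G and C and GC boxes were thus not particular to Syt10. These matches are a description of the letters in these windows.

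Among the 10 synaptotagmins, 2 (Syt10 and Syt4) had an adjusted p under 0.05 with lower levels in Neuid KD, where 2.42% of all tested genes did (473 genes), and 1 (Syt11) with higher levels, where 6.31% did (1235 genes). With upper-quartile scaling the split over all genes was 1259 lower and 1049 higher. The groups did not overlap for 2 of the 10 genes and for 5.7% of all tested genes. Since the genes were chosen on this contrast, nothing is read from these counts. The median log2 fold change of the 10 was -0.13, that of all tested genes -0.03, and 8 of the 10 had a negative sign. The sign of Syt1, Syt2 and Syt3 differed between settings (kept in 20, 16 and 21 of 22 alternatives).

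**Figure D2:**
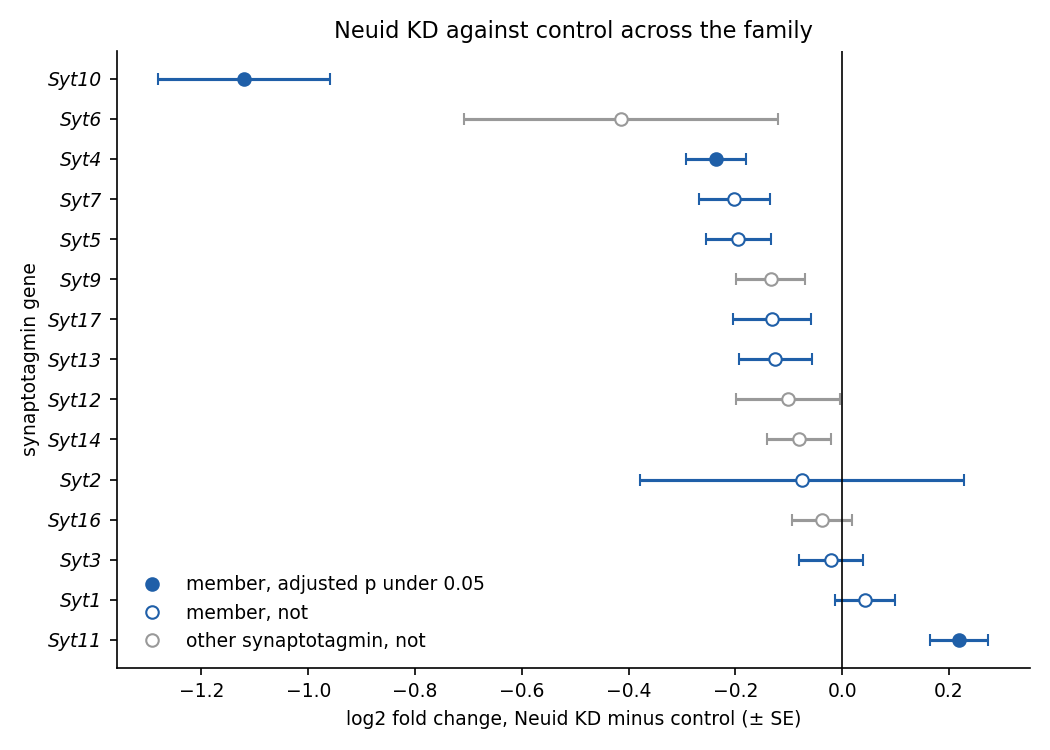
Log2 fold change (Neuid KD minus control) with its SE for the 15 tested synaptotagmins, members in blue and other synaptotagmins in grey; filled points had an adjusted p under 0.05 in edgeR's quasi-likelihood test. Syt10 stands at -1.12, Syt4 at -0.24 and Syt11 at 0.22, and the other 12 points are open.

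The vesicle-bound sensors of fast release and their relatives had log2 fold changes from -0.19 (Syt5) to 0.04 (Syt1). Syt1, the sensor for synchronous release in forebrain neurons, had 477 to 572 CPM (median 529) in control libraries and 481 to 577 CPM (median 562) in Neuid KD, and the groups overlapped over nearly their whole range. Its log2 fold change was 0.04 ± 0.06, with a 95% interval from -0.07 to 0.16. Syt5, also a vesicle-bound Ca2+-binding member, had 88.1 to 102 CPM (median 92.6) in control and 72.7 to 89.5 CPM (median 82.8) in Neuid KD. All 6 Neuid KD libraries were under the control mean of Syt5 and 4 of them under the lowest control library, with a log2 fold change of -0.19 ± 0.06.

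Syt2, the fast sensor of brainstem and neuromuscular synapses, was the least expressed member. It had 1.39 to 6.19 CPM (median 3.88) in control and 1.68 to 5.22 CPM (median 3.69) in Neuid KD, and the groups overlapped almost completely. Its log2 fold change was -0.08 ± 0.30 with a 95% interval from -0.72 to 0.57. The level of Syt2 moved with the background: it was 3.53 to 6.19 CPM in the 7 libraries with a background of at least 100 CPM and 1.39 to 3.72 CPM in the other 5. The part of the background in the Syt2 reads was not tested.

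**Figure D3:**
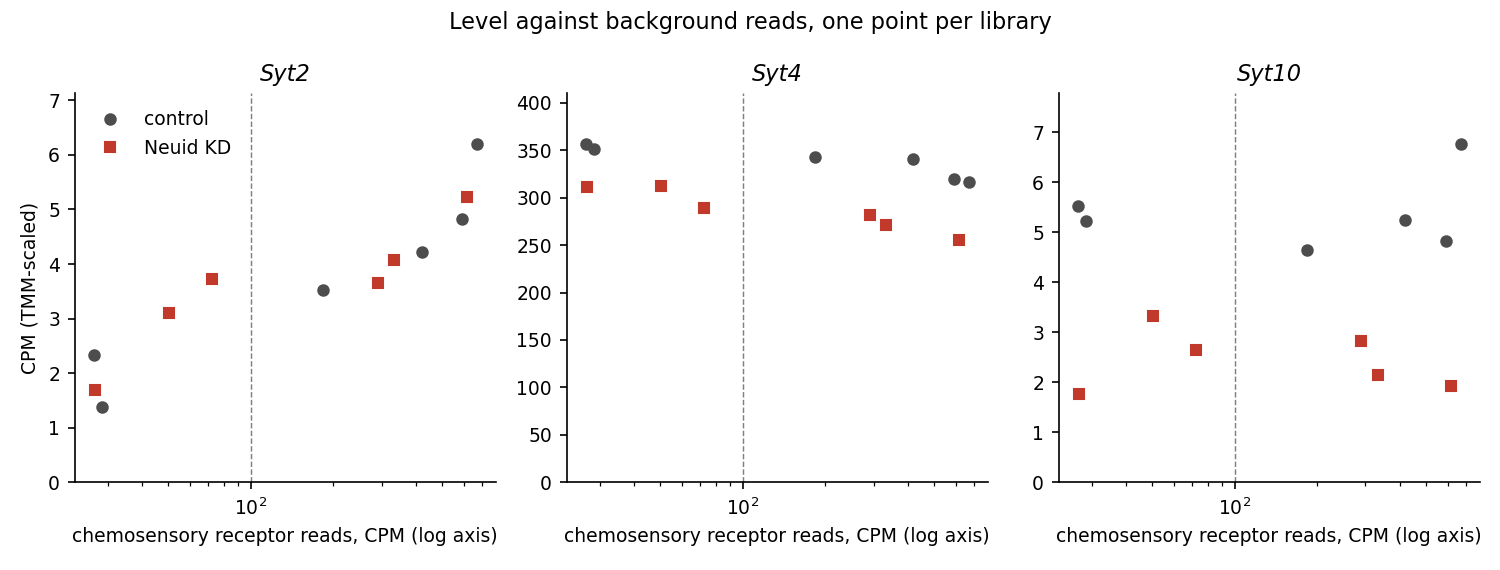
Level in CPM of Syt2, Syt4 and Syt10 (linear axes from 0) against reads on chemosensory receptor genes in CPM (log axis), one point per library, control in grey circles and Neuid KD in red squares; the dashed line is at 100 CPM. Syt2 is higher on the right (3.53 to 6.19 CPM) than on the left (1.39 to 3.72 CPM), whereas the groups of Syt4 and Syt10 are apart on both sides.

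The sensors of slower or non-synaptic fusion differed from each other. Syt7, the high-affinity sensor linked to asynchronous release and facilitation, had 141 to 165 CPM (median 154) in control libraries and 108 to 145 CPM (median 138) in Neuid KD. All 6 Neuid KD libraries lay under the control mean of Syt7 and 4 under its lowest control library, and the log2 fold change was -0.20 ± 0.07. Neither Syt5 nor Syt7 was called in the main edgeR fit with TMM factors. Both were called lower by DESeq2 and by edgeR with RLE or upper-quartile factors. With TMM factors kept, both were also called with the background covariate, with 1 RUVs factor, after thinning, and without Neuid KD replicate 1. In all, Syt5 was called in 8 of 22 alternatives and Syt7 in 9 of 22. Since both genes were chosen on this contrast, these calls describe only the dependence on processing. Syt3, a sensor of the plasma membrane that takes part in AMPA receptor endocytosis, had 29.5 to 34.2 CPM (median 31.6) in control and 28.6 to 34.6 CPM (median 30.5) in Neuid KD. The groups of Syt3 coincided, with a log2 fold change of -0.02 ± 0.06.

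Syt4 and Syt11 form a class whose first C2 domain carries a substitution that removes Ca2+ binding, and their difference between the groups had opposite signs. Syt4, found on neurotrophin-containing vesicles, had 316 to 356 CPM (median 342) in control libraries and 255 to 312 CPM (median 285) in Neuid KD. The highest Neuid KD library lay just under the lowest control library, and the mean was 84.9% of control, with a log2 fold change of -0.24 ± 0.06. Within the 7 libraries of higher background the means of Syt4 were 330 and 269 CPM, and within the other 5 they were 353 and 304 CPM. The call of Syt4 was lost when only the libraries with a background of at least 100 CPM were used, when genes with low counts were kept, and without control replicate 2, 3 or 5 or Neuid KD replicate 2, while the fold change stayed between -0.30 and -0.22. Its exons overlap those of the antisense gene Gm26658, whose transcript holds, on either strand, 10.9% of the 50-base sequences of Syt4, and whose level was 0.181 to 0.854 CPM in control and 0.168 to 0.737 CPM in Neuid KD.

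Syt11, which acts in endocytosis and is expressed in neurons and glia, had 453 to 553 CPM (median 513) in control libraries and 546 to 615 CPM (median 601) in Neuid KD. Of the Neuid KD libraries, 5 lay above the highest control library, and replicate 1 (546 CPM) lay just under it. The log2 fold change of Syt11 was 0.22 ± 0.05, positive in 22 of 22 alternatives and called in 14 of them; without 1 library it was called 6 times of 12. Within the libraries of higher background the means were 489 and 567 CPM, and within the others 546 and 614 CPM. Markers of astrocytes moved in the same direction: 10 of 10 were higher in Neuid KD, and their summed level was 1890 to 2412 CPM in control libraries and 4388 to 4956 CPM in Neuid KD. The part of astrocyte RNA in the level of Syt11 was not tested.

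Syt13 and Syt17 do not act as Ca2+ sensors. Syt13 lacks the Ca2+-binding residues, and had 21.1 to 26.8 CPM (median 23.5) in control and 19.5 to 24.4 CPM (median 21.4) in Neuid KD. Syt17, which has no transmembrane segment, had 16.8 to 20.8 CPM (median 19.7) in control and 15.9 to 19.8 CPM (median 16.6) in Neuid KD. The groups overlapped for both genes, and their log2 fold changes were -0.13 ± 0.07 each.

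Per exon length, the family in these cultures was led by Syt11 and Syt4. CPM per kilobase of exon (RPKM), averaged over the 6 control libraries, were 97.5 ± 7.29 for Syt11, 86.8 ± 4.22 for Syt4, 63.7 ± 4.10 for Syt1, 39.3 ± 2.18 for Syt5 and 20.6 ± 1.13 for Syt7 (SD). Syt11 and Syt4 overlapped in their control ranges, and each later step down to Syt7 exceeded the spread. Below them came Syt9 and Syt3, then Syt16 and Syt13, then Syt17, Syt14 and Syt10, where neighbours within each of these sets overlapped. Syt12 and then Syt2 stood apart below Syt10, and Syt2, Syt6, Syt8 and Syt15 each overlapped the next. Syt10 stood at 2.91 ± 0.41 RPKM, above 56.2% of the tested genes, and Syt2 at 0.491 ± 0.23 RPKM, above 24.5%.

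**Figure D4:**
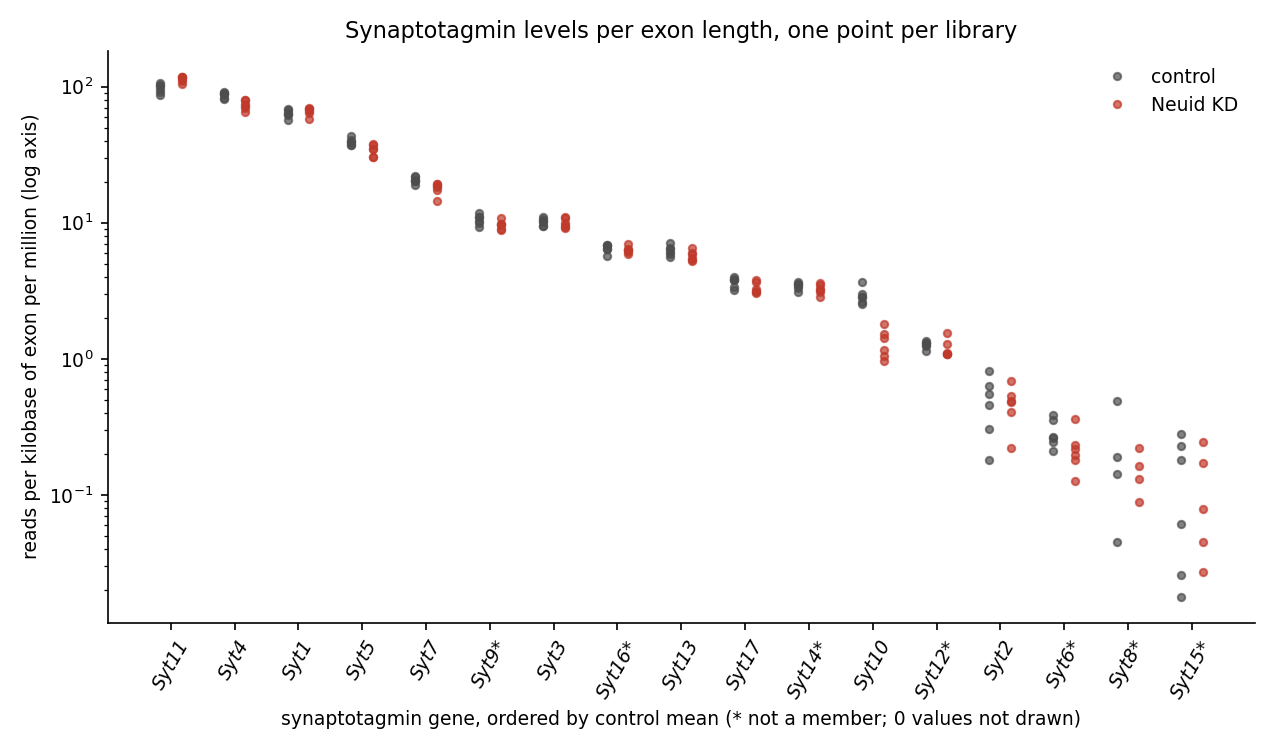
Level per exon length in RPKM (log axis) of all 17 synaptotagmins, ordered by the control mean, with 1 point per control library (grey) and per Neuid KD library (red); values of 0 are not drawn. Syt11 (97.5 RPKM) and Syt4 (86.8 RPKM) lead in control, and Syt10 is the gene whose red points fall clear of the grey ones by the widest margin.

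The summed level of all 17 genes was 354 ± 19.0 RPKM in control and 347 ± 21.0 RPKM in Neuid KD, with overlapping ranges. Within this sum the share of Syt11 was 27.5% in control and 32.8% in Neuid KD, that of Syt4 24.5% and 21.2%, and that of Syt10 0.829% and 0.381%. The order of the genes was the same in both groups apart from Syt3 and Syt9, which changed places.

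None of the 5 other tested synaptotagmins was called by edgeR's quasi-likelihood test or by DESeq2, and none had an unadjusted edgeR p under 0.05. All 5 had a negative log2 fold change, with a median of -0.10. Syt9 had 42.1 ± 3.76 CPM in control libraries and 38.3 ± 2.76 CPM in Neuid KD (SD, n = 6), and it was called lower under 3 of 22 alternatives. Syt16 had 59.3 ± 4.13 and 57.7 ± 3.45 CPM, Syt14 41.1 ± 2.44 and 38.8 ± 3.31 CPM, Syt12 7.05 ± 0.42 and 6.63 ± 1.01 CPM. Syt6, grouped by sequence with Syt3 and Syt10, had 1.68 ± 0.40 and 1.28 ± 0.46 CPM, with a log2 fold change of -0.41 ± 0.29. Syt8 (0 to 20 reads per library) and Syt15 (0 to 31 reads) were too low to be tested.

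Reads of the members were largely their own. No sequence of 50 bases, the read length, was shared between any 2 of the 10 genes, and Syt10, Syt1, Syt3, Syt5 and Syt13 shared none with any other gene. Syt11 shared 5.92% of its 50-base sequences with transcripts of other genes, Syt7 4.25% with its opposite-strand neighbour Gm26859, Syt17 0.578% and Syt2 0.0262%. The strand setting of the counting is not given in the sources used here, so in these shared stretches of Syt4 and Syt7 reads cannot be told apart from those of the opposite-strand partner.

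Of 61 genes in 5 lists of relatives, partners and activity-regulated genes, 60 were tested, and edgeR's quasi-likelihood test called 3 lower and 7 higher. The same test called 2.42% of all tested genes lower and 6.31% higher. No conclusion is drawn from the small counts per list. The relatives with tandem C2 domains had 1 call in 12: the extended synaptotagmin Esyt2, a tether between endoplasmic reticulum and plasma membrane, rose from 48.4 ± 4.98 to 59.1 ± 5.62 CPM (adjusted p = 0.020), a call that was kept in 13 of 22 alternatives with adjusted p from 1.1e-04 to 0.22. Rph3a and Doc2b, the most abundant of these genes, had log2 fold changes of -0.02 ± 0.06 and -0.08 ± 0.06.

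Of the SNARE fusion machinery, on which the Ca2+ sensors act, 1 gene of 17 was called. Snap23, the broadly expressed counterpart of the neuronal Snap25, rose from 7.01 ± 0.51 to 10.8 ± 0.64 CPM (log2 fold change 0.62 ± 0.07, adjusted p = 9.3e-06), with no overlap of the groups. Snap25 had 376 ± 27.3 and 375 ± 29.3 CPM, Cplx2 1058 ± 83.6 and 1101 ± 67.4 CPM and Nsf 727 ± 47.5 and 724 ± 53.4 CPM. The summed level of the 17 genes was 4503 to 5299 CPM in control libraries and 4303 to 5179 CPM in Neuid KD.

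Of 12 genes listed for the sorting or retrieval of synaptotagmins and other vesicle proteins, 1 was called. Sv2c, a vesicle glycoprotein, fell from 20.7 ± 1.46 to 17.2 ± 2.30 CPM (adjusted p = 0.041), which was called in 11 of 22 alternatives with adjusted p from 0.0063 to 0.81. Sv2b and Ap2b1 had the highest means over all 12 libraries. Sv2b had 515 ± 38.1 and 586 ± 36.9 CPM (adjusted p = 0.055), and the adaptor subunit gene Ap2b1 563 ± 31.3 and 532 ± 42.6 CPM.

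The list of dense-core vesicle and cargo genes also holds the receptor of the cargo linked to Syt10, and it had 5 calls among 9. Of these calls 2 were lower and 3 higher, where 2.42% and 6.31% of all tested genes were. Igf1, the cargo itself, had 7.22 ± 1.55 CPM in control libraries and 5.52 ± 0.84 CPM in Neuid KD (log2 fold change -0.39 ± 0.14, adjusted p = 0.11), whereas its receptor Igf1r rose from 33.6 ± 3.93 to 75.2 ± 9.80 CPM (log2 fold change 1.17 ± 0.09). The groups of Igf1r did not overlap. The prohormone convertases Pcsk1 (log2 fold change -0.46 ± 0.06) and Pcsk2 (-0.33 ± 0.06) fell, while carboxypeptidase Cpe (0.35 ± 0.05) and the granule protein Scg3 (0.38 ± 0.06) rose. Cadps, a priming factor for these vesicles, had 294 ± 12.4 and 298 ± 27.6 CPM.

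**Figure D5:**
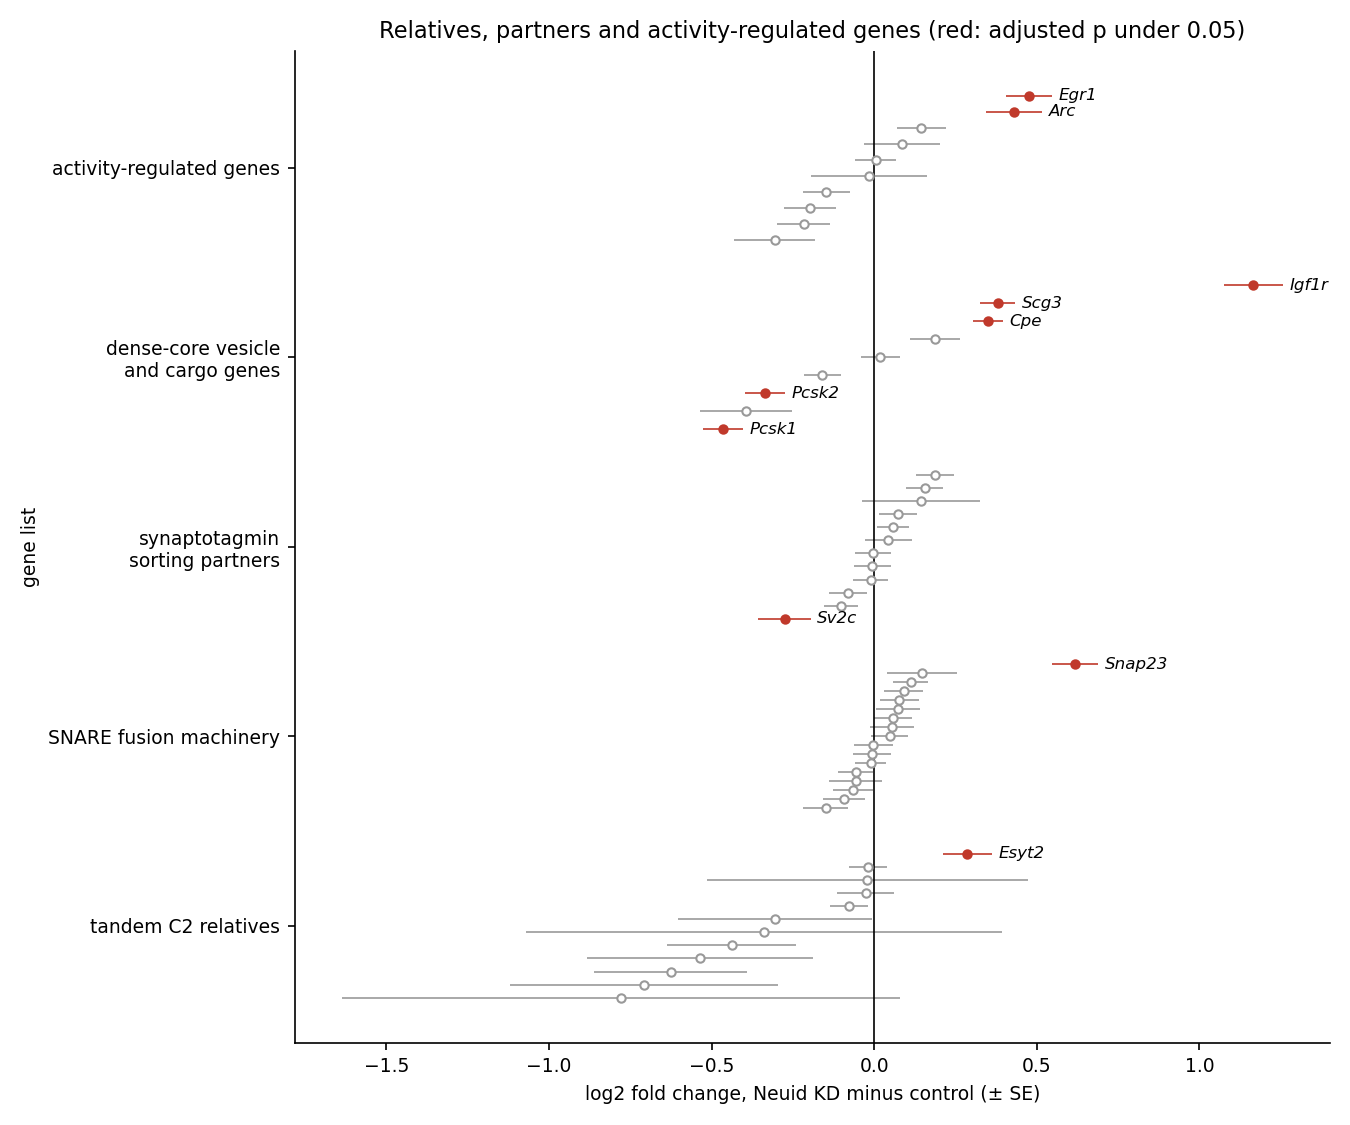
Log2 fold change (Neuid KD minus control) with its SE for the 60 tested genes of 5 lists, with 1 row of points per list; red points with names had an adjusted p under 0.05 in edgeR's quasi-likelihood test. Igf1r (1.17) lies farthest to the right, and Pcsk1 (-0.46) is the lowest of the called genes.

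Activity-regulated genes were listed because Syt10 responds to activity, and 2 of 10 were called. Egr1 rose from 48.2 ± 5.65 to 67.0 ± 4.59 CPM (log2 fold change 0.48 ± 0.07, adjusted p = 2.2e-04) and Arc from 13.2 ± 1.67 to 17.8 ± 1.66 CPM (0.43 ± 0.09, adjusted p = 0.0030). Npas4, a neuronal activity-dependent transcription factor, had 21.9 ± 1.96 and 19.7 ± 1.90 CPM (log2 fold change -0.15 ± 0.07, adjusted p = 0.29). The list went both ways, with 5 negative and 5 positive signs and a median log2 fold change of -0.01, and the lowest values, which were not called, were those of Nr4a1 (-0.31 ± 0.12), Fos (-0.22 ± 0.08) and Nr4a2 (-0.20 ± 0.08).

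The genes whose log2 CPM followed Syt10 most closely over the 12 libraries, among 15204 compared, were Khdrbs2 (Pearson r = 0.95), Lzts1 (0.94), Cgref1 (0.94), Trpm2 (0.93) and Inpp5j (0.93). The 12 points share the difference between the groups, and each of these 5 genes was itself lower in Neuid KD, with log2 fold changes from -0.53 to -0.24. After the mean of each group was subtracted the leading genes were others (Gm37529 at 0.94, Gm19938 at 0.89, Ppcdc at 0.86, Prmt6 at 0.86 and Gm42973 at 0.85). None of these 5 was called, and Gm37529, Gm19938 and Gm42973 had control means of only 2.70, 2.67 and 3.29 CPM. They are the highest of 15204 values over 12 points, and how high r would run without any relation was not tested. Among the synaptotagmins, r with Syt10 was 0.78 for Syt4 and -0.74 for Syt11 over all libraries, and 0.16 and -0.05 after the group means were subtracted. Within 1000 kb of Syt10, 34 of 58 annotated genes were tested, of which 2 were called lower and 2 higher. Of all tested genes, 2.42% were called lower and 6.31% higher, and nothing is read from these small counts.

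Levels of the cell type markers differed by cell type. Of 13 neuron markers 1 was called lower and 2 higher (summed level 7673 to 9061 CPM in control libraries, 7484 to 9119 in Neuid KD), of 9 markers of excitatory neurons 1 lower and 1 higher, and of 10 tested markers of inhibitory neurons none by edgeR, with 4 at an unadjusted p under 0.05 and 1 called by DESeq2. The inhibitory list had 9 negative signs among 10. Of all 19578 tested genes, 10880 had a negative sign and 3687 an unadjusted edgeR p under 0.05. By edgeR, 2.42% of them were called lower and 6.31% higher. The summed level of the inhibitory list ran from 342 to 396 CPM in control libraries and from 283 to 344 in Neuid KD. Reln weighs most in this sum, with means of 160 CPM in control libraries and 135 after knockdown (log2 fold change -0.23 ± 0.08). Gad2 (-0.13 ± 0.06) and Vip (-0.63 ± 0.29) were also lower, and Slc32a1 was higher (0.17 ± 0.07). Gad1 (-0.03 ± 0.06), Sst (-0.04 ± 0.10), Lhx6, Dlx1, Dlx2 and Dlx5 differed by less than their SE. Of 7 markers of oligodendrocyte precursors 3 were higher, Olig1 and Olig2 among them, and of 4 tested oligodendrocyte markers Mbp was lower. None of the 3 microglia, 5 endothelial and 7 fibroblast and mural markers tested was called by edgeR or DESeq2, with 0 at an unadjusted p under 0.05; the summed microglia level was 6.57 to 11.3 CPM in control and 5.73 to 11.1 CPM in Neuid KD. No marker was without reads in all libraries. The part of these shifts in the levels of the synaptotagmins and of the partner genes was not tested.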

How the data were processed

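Total RNA libraries (SMARTer Stranded Total RNA-Seq, pico input) of 12 samples were sequenced as single reads, and the deposited values are raw counts per gene, which the authors made by aligning reads to mm10 with STAR and counting with featureCounts. Genes were named from GENCODE vM21 (55230 of 55471 matched). The comparison was fitted in edgeR 4.0.16 (R 4.3.3) by quasi-likelihood, with TMM factors and the filterByExpr filter, group as the only term, and Benjamini-Hochberg adjustment over all 19578 genes; a call is an adjusted p under 0.05. DESeq2 1.42.0, other scalings and filters, a replicate block, a background covariate, 1 RUVs factor, thinned counts and leaving out each library were alternatives. The main edgeR fit, the replicate block, the RUVs fit and DESeq2 were also run on simulated counts, with an outcome that is not given here.

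RPKM used the union of exons. The members and lists were chosen with earlier results of these data known. Named genes are all synaptotagmins, Neuid and the 5 most like Syt10. For each of the 5 lists of relatives, partners and activity-regulated genes, the 2 most abundant genes are also named. So are their genes called beyond a log2 fold change of 0.5 (at most 6 per list). Of the cell type markers that meet the same rule, only some are named. Genes named beyond these were chosen after their values were seen. Libraries of a group differed by more than counting noise (lowest chi-square per degree of freedom 3.23).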

Additional observations from a re-analysis of the deposited data

Results flagged for a closer look

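Among 34 sets of 6 libraries (17 synaptotagmins in each group), 1 held a library far from the others of its group, where chance sets apart about 1 in 20. Syt16 was at 51.7 CPM in control replicate 1, and at 58.5 to 62.4 CPM in the other 5 control libraries.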

How the results depend on the processing

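Among the members, Syt10 was called in 22 of 22 alternatives, and the calls of Syt4 and Syt11 were each lost in some of them. Since the members were chosen on this contrast in the same libraries, these counts describe only the dependence on processing. Of the partner genes, Snap23, Igf1r, Pcsk1, Scg3, Egr1 and Arc were also called in 22 of 22. Syt2 and Syt6 had at most 120 and 53 reads per library. The numbers of all genes lower and higher in Neuid KD (473 and 1235) became 1259 and 1049 with upper-quartile factors, 229 and 711 with no filter on low counts, 987 and 1776 with a background covariate, 205 and 651 in libraries with a background of at least 100 CPM, 799 and 1110 in those under 100 CPM, 982 and 1738 with 1 RUVs factor, and 155 and 477 with a fold-change threshold of 0.5. Members lower (2) became 4 with RLE or upper-quartile factors, DESeq2, the covariate and RUVs, 5 (Syt13 added) after thinning, and 1 with no filter, at high background and with the fold threshold; in the last 3 settings the members higher fell from 1 to 0. The other synaptotagmins called (0) became 1 (Syt9) with upper-quartile factors, the covariate and RUVs. Partner genes called (10) became 18 with upper-quartile factors and with the covariate, 16 at low background, 17 with RUVs, 6 with no filter and 2 with the fold threshold. Leaving out 1 library gave 355 to 780 genes lower (780 without Neuid KD replicate 1) and 822 to 1208 higher (822 without Neuid KD replicate 2), 1 to 4 members lower (4 without Neuid KD replicate 1; 1 without control replicate 2, 3 or 5 or Neuid KD replicate 2), 0 to 1 member higher (0 without control replicate 2 or 6 or Neuid KD replicate 2, 3, 4 or 6), 0 other synaptotagmins and 8 to 14 partner genes. The causes were not tested.

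The replicate block gave 542 genes lower, 1299 higher, 3 members lower, with Syt7 added, and 14 partner genes. Deviations of same-numbered libraries correlated between -0.64 and 0.77, and 2 of 6 control libraries matched their own number best. These deviations were not adjusted for the background, which ran from 26.7 to 667 CPM. The check therefore cannot tell whether same-numbered libraries shared a culture or a batch.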
